A study of Homo sapiens with 2 samples.

Results

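Mitochondria make only a handful of their own proteins, and nearly all others are made in the cytosol and imported. Precursors pass the outer membrane through the TOM complex. From there the TIM23 complex carries proteins with a presequence into the matrix or inner membrane, the small TIM proteins and the TIM22 complex deliver carrier proteins to the inner membrane, the SAM complex inserts barrel proteins into the outer membrane, and the MIA disulfide relay traps cysteine-rich proteins in the intermembrane space. In the matrix, peptidases remove presequences, chaperones fold the arriving chains, and the LON and CLP proteases remove those that fail to fold. The 41 genes described here encode these components or factors that work with them, and were taken by name from the 19927 gene rows of the count table. Of them, 40 reached 1 CPM, a read count scaled to library size, in at least 1 library, as did 12540 genes in all. PAM16 did not.

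Messenger RNA was sequenced from Huh7, an established human hepatocellular carcinoma cell line. The knockdown library (shPPIL1) came from cells with 1 short hairpin RNA against PPIL1, which encodes a cyclophilin found in the spliceosome, and the control library (shControl) from cells with a control hairpin, whose genotype label reads WT. The comparison asks how PPIL1 knockdown alters gene expression in these cells. With 1 library per group there is no replicate check and no test between conditions, and with 1 hairpin, effects of PPIL1 loss and of the hairpin itself cannot be told apart.

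The shPPIL1 library held 41165401 counted reads and the shControl library 41015345. PPIL1 had 104 reads in the shPPIL1 library and 1505 in the shControl library (1.67 and 24.2 FPKM, the read count per transcript length and library size), a ratio of 0.0679 (95% counting interval 0.0552 to 0.0829). The hepatocyte markers ALB and AFP stood at 3270 and 4612 FPKM in the shPPIL1 library and at 3203 and 4564 FPKM in the shControl library. All 8 hepatocyte markers were kept, and they summed to 11226 FPKM in the shPPIL1 library and 10814 FPKM in the shControl library. The 5 fibroblast markers summed to 2.33 FPKM in the shPPIL1 library and 1.91 FPKM in the shControl library, with COL1A2 at 0 reads in both and COL3A1 at 48 and 16 reads. The 4 leukocyte markers summed to 19.9 and 20.8 FPKM, nearly all from CD68, with PTPRC at 10 and 4 reads. The 4 endothelial markers summed to 1.34 and 1.58 FPKM, with KDR at 0 reads in both and VWF at 0 and 4. The part of these low-level markers in the results was not tested.

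As a group the import genes and matrix chaperones lay slightly lower in the shPPIL1 library, and a few of them lay well below the rest. Each ratio is the shPPIL1 library over the shControl library, from counts scaled by library size, with an exact 95% interval for counting error. A gene was called higher or lower when it differed by at least 1.2-fold and its interval excluded 1. By this rule 7 of the 40 kept members (17.5%) were called lower, against 9.46% of all kept genes, and 0 were called higher, against 8.39% of all kept genes. The 7 were TIMM17A, CHCHD4, TIMM50, TOMM5, HSPA9, TOMM40 and TIMM10B. At 1.5-fold, 1 member was lower (TIMM17A) and 0 were higher, against 2.22% and 2.02% of all kept genes. Counting any difference whose interval excluded 1, 18 of 40 members were lower (45.0%) and 8 higher, against 26.2% and 24.8% of all kept genes, and 14 had an interval including 1.

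The median log2 ratio was -0.09 over the kept members and -0.00 over all kept genes. The middle 50% of members ran from -0.19 to 0.07, and that of all kept genes from -0.13 to 0.12. The members are well read, and by the 1.2-fold rule well-read genes are called less often. Among the 9193 kept genes with at least as many reads as the least read kept member, 7.41% were called lower and 5.12% higher. That limit is only a floor, at a mean of 474.5 reads, so these genes are not matched to the members in depth. An interval excludes 1 more readily in a well-read gene, and in those 9193 genes 29.8% of intervals lay below 1 and 26.8% above 1. In libraries made from whole cultures, fewer cells expressing a gene and less RNA per cell cannot be told apart.

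**Figure D1:**
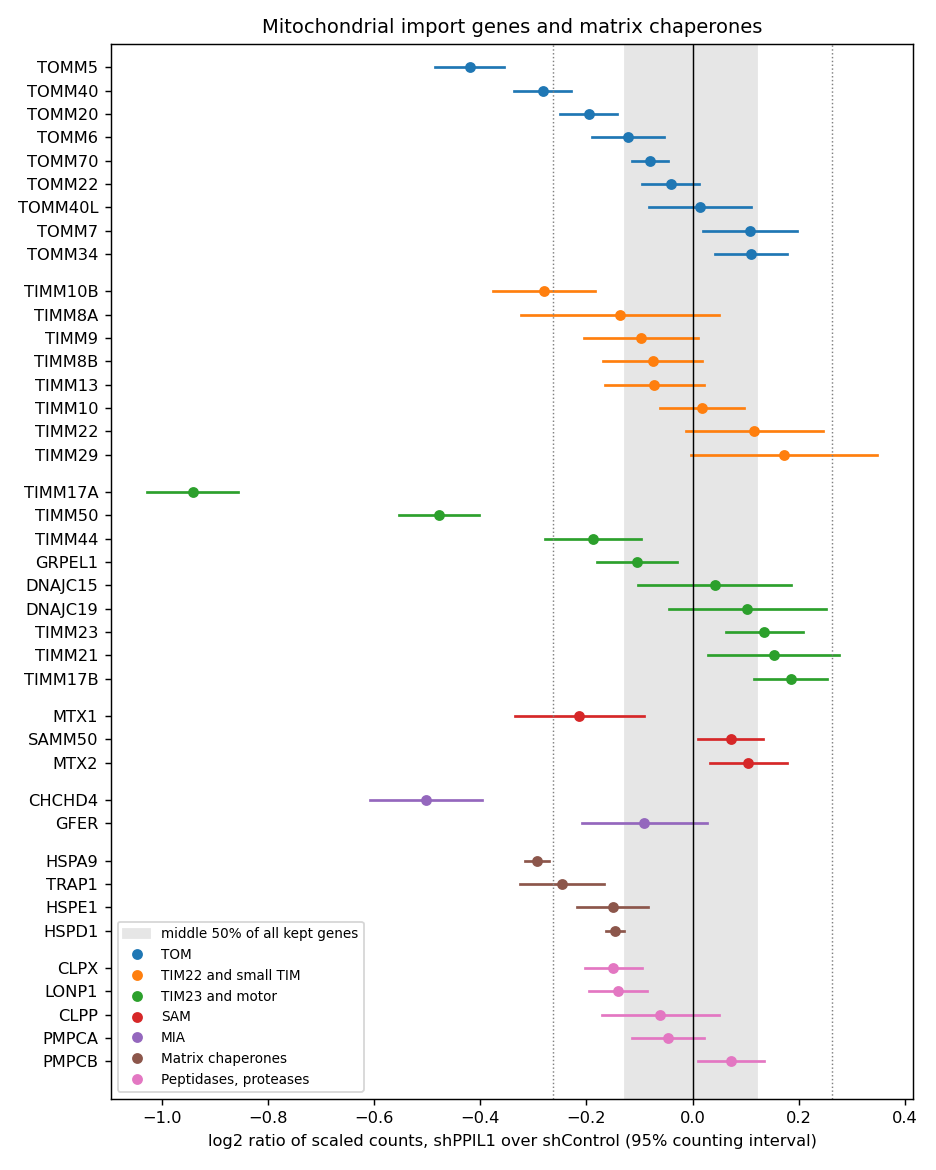
Log2 ratio of scaled counts (shPPIL1 over shControl) for the 40 kept members, grouped by role. Dots are ratios, bars the 95% counting intervals, the grey band the middle 50% of all kept genes and dotted lines 1.2-fold. TIMM17A lies at -0.94, apart from the other members, which lie between -0.50 (CHCHD4) and 0.19 (TIMM17B).

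TIMM17A differed most of all 41 genes. It encodes a subunit of the TIM23 complex, the gate of the inner membrane for proteins with a presequence. It had 1686 reads in the shPPIL1 library and 3185 in the shControl library, or 24.8 and 47.1 FPKM. The ratio was 0.520 (0.490 to 0.552), 1.92-fold lower, and 75 of the 12540 kept genes had a lower one. The gene lies on chromosome 1 from 201955491 to 201970661 (GRCh38, plus strand) and its main transcript has 6 exons. None of its transcript windows of 100 bases matched a gene elsewhere.

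The 3' UTR of TIMM17A, 1107 bases long, carries the 6-base motif GATCAT 3 times. An earlier search of these same 2 libraries picked out this motif, so the match is not independent evidence. The sequence of the hairpin was not used here, and the motif was not compared with it. The sites are shown with their flanks, 5' to 3' on the sense strand with the motif in capitals. They lie on chromosome 1 at chr1:201969858-201969863, chr1:201970062-201970067 and chr1:201970209-201970214 (GRCh38), in the last exon. They begin at bases 304, 508 and 655 of the 3' UTR.
TIMM17A site 1: acagtgaaatatGATCATcatctccttgcg
TIMM17A site 2: agagtcaacatgGATCATttcacagtgaga
TIMM17A site 3: gtcttgattcctGATCATcagaaatttcac
Of 6116 kept genes whose 3' UTR was no longer than that of TIMM17A, 6 carried at least 3 copies, TIMM17A included. Both limits were taken from TIMM17A itself, so this count is a description and not a test. The ratios of the others were not looked at.

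TIMM17B, the paralog that can take the place of TIMM17A in the same complex, went the other way. It had 3685 reads in the shPPIL1 library and 3187 in the shControl library (93.3 and 81.0 FPKM), a ratio of 1.14 (1.08 to 1.19). This was the highest ratio among the kept members and stayed under 1.2-fold. Its 3' UTR, 282 bases long, carries 0 copies of the motif. The ratio of TIMM17A divided by that of TIMM17B was 0.458 (exact 95% interval 0.424 to 0.494). TIMM17A made up 21.0% of the summed FPKM of the pair in the shPPIL1 library and 36.7% in the shControl library. The sum itself was 118 FPKM in the shPPIL1 library and 128 FPKM in the shControl library.

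The other TIM23 genes were spread to both sides. TIMM50, the receptor that takes presequences from TOM, had 2480 reads in the shPPIL1 library and 3395 in the shControl library (12.03 and 16.5 FPKM), a ratio of 0.718 (0.682 to 0.757). It lies on chromosome 19 from 39480412 to 39493785 (GRCh38, plus strand), with 11 exons. TIMM44, which anchors the motor chaperone to the channel, had 1866 and 2090 reads (24.6 and 27.6 FPKM), a ratio of 0.878 (0.824 to 0.935), under 1.2-fold. TIMM23 itself had 3254 reads in the shPPIL1 library and 2913 in the shControl library (65.2 and 58.6 FPKM), a ratio of 1.10 (1.04 to 1.16). TIMM21, which links the complex to the respiratory chain, had 1142 and 1010 reads, a ratio of 1.11 (1.02 to 1.21). So within this translocase TIMM23, TIMM17B and TIMM21 had intervals above 1, and TIMM17A, TIMM50 and TIMM44 intervals below 1. TIMM23 shares 5.31% of its windows with TIMM23B.

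Among the regulators of the import motor, GRPEL1, which exchanges the nucleotide of the motor chaperone, had a ratio of 0.930 (0.883 to 0.980), with 2795 reads in the shPPIL1 library and 2955 in the shControl library (25.6 and 27.2 FPKM). Its paralog GRPEL2, which is not one of the 41 genes, had 1385 and 1570 reads and a ratio of 0.867 (0.806 to 0.933). The J-proteins DNAJC15 and DNAJC19, partners of that chaperone at the channel, had intervals including 1. DNAJC15 had 803 reads in the shPPIL1 library and 767 in the shControl library (2.62 and 2.51 FPKM, ratio 1.03, 0.931 to 1.14), and DNAJC19 had 781 and 715 (13.3 and 12.2 FPKM, ratio 1.07, 0.969 to 1.19). PAM16, their J-like partner, had 9 reads in the shPPIL1 library and 8 in the shControl library, too few to show a difference (ratio 1.11, 0.379 to 3.29). Of the PAM16 windows, 71.4% also lie in the readthrough gene CORO7-PAM16, which overlaps it, and the sources used here do not say how reads in overlaps were counted.

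The MIA relay had 1 of 2 genes called lower, against 9.46% of all kept genes. CHCHD4, the oxidoreductase that binds incoming cysteine-rich precursors and forms their disulfide bonds, had 1245 reads in the shPPIL1 library and 1734 in the shControl library (19.9 and 27.9 FPKM). Its ratio was 0.706 (0.656 to 0.760), 1.42-fold lower and the second lowest of the kept members. GFER, the sulfhydryl oxidase that regenerates CHCHD4, had 1147 and 1201 reads (11.8 and 12.4 FPKM), a ratio of 0.939 (0.865 to 1.02). COX17, a copper chaperone imported by this relay and not one of the 41 genes, had 2175 reads in the shPPIL1 library and 1851 in the shControl library (ratio 1.16, 1.09 to 1.23), under 1.2-fold. CHCHD4 lies on chromosome 3 from 14112077 to 14124870 (GRCh38, minus strand), with 4 exons.

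**Figure D2:**
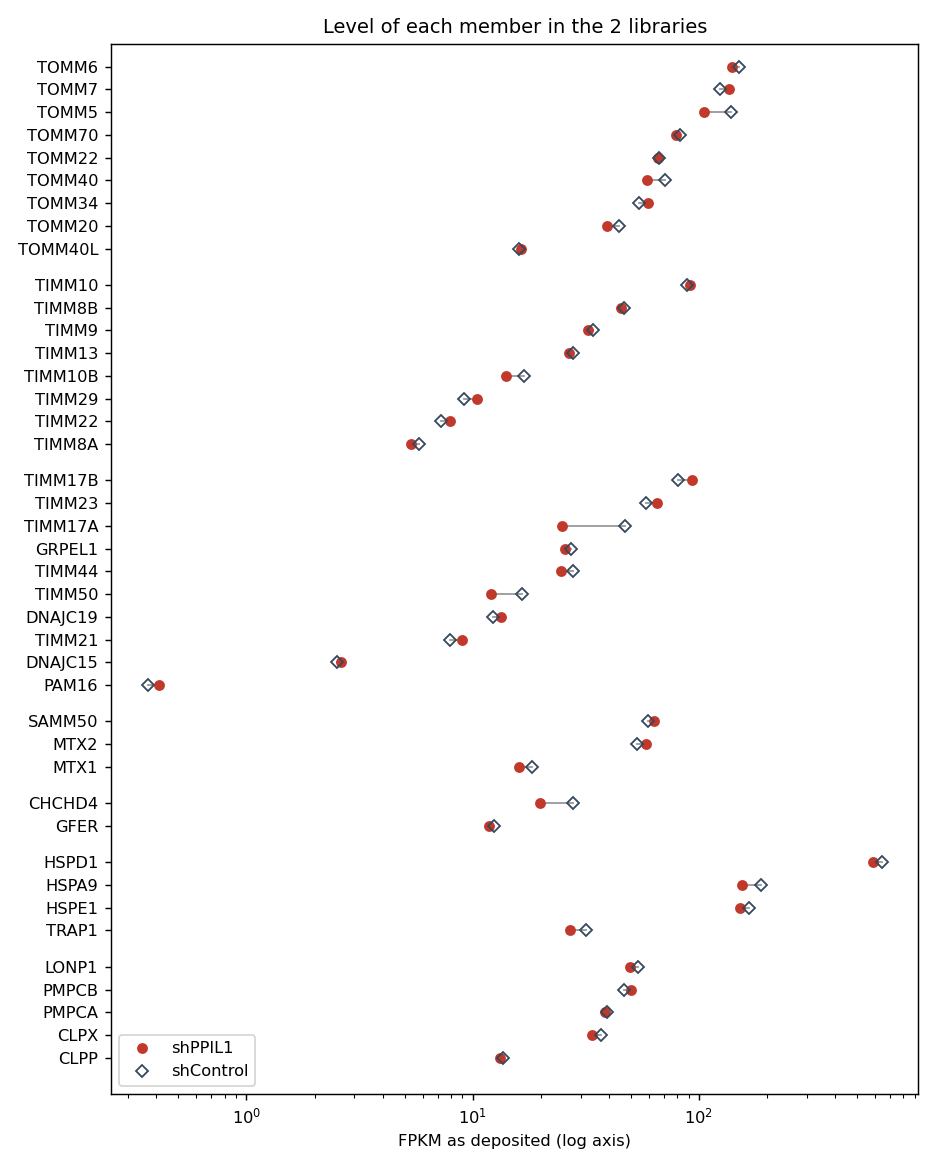
FPKM of all 41 members as deposited, on a log axis, with filled circles for the shPPIL1 library and open diamonds for the shControl library. HSPD1 stands highest at 588 and 642 FPKM and PAM16 lowest at 0.410 and 0.366 FPKM. On this axis the gap for TIMM17A (24.8 and 47.1 FPKM) is the widest of the 41.

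All 4 matrix chaperones among the 41 genes had intervals below 1, against 26.2% of all kept genes, and 1 was called lower, against 9.46%. Their read counts make the intervals narrow, and 3 of the 4 lay under 1.2-fold. Other mitochondrial folding factors were listed apart, and some of those had intervals including 1. HSPA9, the Hsp70 that pulls precursors through TIM23 and folds them, had 28146 reads in the shPPIL1 library and 33899 in the shControl library (155 and 188 FPKM), a ratio of 0.816 (0.804 to 0.829). HSPD1, the chaperonin, was the most abundant member. It had 55023 and 59898 reads (588 and 642 FPKM), a ratio of 0.903 (0.893 to 0.914). HSPE1, the co-chaperonin that caps it, had 3491 and 3810 reads (152 and 167 FPKM), a ratio of 0.901 (0.860 to 0.944). The mitochondrial Hsp90 TRAP1 had 2374 and 2769 reads (26.9 and 31.5 FPKM), a ratio of 0.843 (0.798 to 0.891), just short of 1.2-fold. These 4 genes summed to 922 FPKM in the shPPIL1 library and 1028 FPKM in the shControl library.

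HSPD1 and HSPE1 are neighbours, read in opposite directions from a shared promoter, and their ratios were alike. The ratio of one divided by that of the other was 1.00 (0.956 to 1.05). HSPD1 made up 79.4% of the summed FPKM of the pair in both libraries. The sequence between a RefSeq start of HSPD1 and a RefSeq start of HSPE1 is shown because both genes are read from it. It spans chr2:197500274-197500379 (GRCh38.p14, plus strand, 106 bases). In GENCODE the HSPE1 gene begins at 197499994, before this stretch, so the stretch lies between the starts in RefSeq only. Capitals mark CACGTG, the E-box that MYC and related factors bind, and a match to the core of the NRF1 motif, GCGC followed by any 2 bases and GCGC again. The 2 matches do not overlap, and the RefSeq start of HSPE1 is at the right end.
HSPD1 to HSPE1: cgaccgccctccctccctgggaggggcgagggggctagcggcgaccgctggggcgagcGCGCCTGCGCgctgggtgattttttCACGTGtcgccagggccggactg

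RefSeq promoters, from 250 bases before to 50 after a start, were matched by symbol for 36 of the 40 kept members and for 10273 kept genes, taking the first listed start of each gene and reading both strands. The E-box CACGTG was in 7 of the 36 (19.4%) and in 10.1% of kept genes. The 7 were TOMM20, TIMM8A, TIMM10, HSPA9, HSPD1, HSPE1 and LONP1, and their median log2 ratio was -0.15, against -0.05 for the other matched members. Over all kept genes the median was 0.00 with it and -0.00 without it. The NRF1 core was in 11 of 36 (30.6%) and in 15.8% of kept genes, with medians of -0.15 for members that have it and -0.07 for those that do not. Over all kept genes the medians with and without the NRF1 core were 0.00 and -0.00. The E-box and NRF1 match printed above lie in the promoters of both HSPD1 and HSPE1, so each was counted for both genes. The ETS motif CCGGAAG was in 14 of 36 (38.9%) and in 19.2% of kept genes, and its members had a median log2 ratio of -0.01, against -0.14 for matched members without it. Over all kept genes the order was the other way, with a median of -0.02 with the ETS motif and 0.00 without it. MYC itself had 4133 reads in the shPPIL1 library and 6726 in the shControl library (ratio 0.604, 0.581 to 0.628), and its part in these values was not tested.

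In the TOM group, which also holds the cytosolic factor TOMM34, 2 of 9 genes were called lower, against 9.46% of all kept genes. TOMM5, a small subunit that steadies the channel, had 3430 reads in the shPPIL1 library and 4514 in the shControl library (105 and 139 FPKM), a ratio of 0.747 (0.714 to 0.781). TOMM40, the channel itself, had 5056 and 6047 reads (58.9 and 70.7 FPKM), a ratio of 0.822 (0.792 to 0.854). Its paralog TOMM40L had 1772 and 1726 reads (16.4 and 15.99 FPKM), a ratio of 1.01 (0.944 to 1.08). TOMM5 lies on chromosome 9 from 37582646 to 37592642 (GRCh38, minus strand, 2 exons) and TOMM40 on chromosome 19 from 44890569 to 44903689 (plus strand, 9 exons). The ratio of TOMM40 divided by that of TOMM40L was 0.814 (0.754 to 0.879), so the gap between them exceeded counting error. TOMM40 made up 78.3% of the summed FPKM of this pair in the shPPIL1 library and 81.6% in the shControl library.

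The other small subunits lay to either side. TOMM6 had 3352 reads in the shPPIL1 library and 3585 in the shControl library (139 and 150 FPKM, ratio 0.919, 0.877 to 0.964), and TOMM7 had 2167 and 1976 (136 and 124 FPKM, ratio 1.08, 1.01 to 1.15). Of the receptors, TOMM20 had 5292 and 5960 reads (39.2 and 44.3 FPKM, ratio 0.873, 0.841 to 0.906), TOMM70 13400 and 13929 (ratio 0.946, 0.924 to 0.969) and TOMM22 5497 and 5561 (ratio 0.972, 0.936 to 1.01). TOMM34, a cytosolic co-chaperone of precursors, had 3710 and 3378 reads (ratio 1.08, 1.03 to 1.13). In GENCODE, transcripts of overlapping genes hold 63.6% of the TOMM5 windows and 100% of the TOMM6 windows, so reads of these 2 genes may have been counted in more than 1 way.

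Along the carrier route, 1 of 8 genes was called lower, against 9.46% of all kept genes. TIMM10B, a small TIM bound to the TIM22 complex, had 1612 reads in the shPPIL1 library and 1925 in the shControl library (14.0 and 16.8 FPKM), a ratio of 0.823 (0.770 to 0.880). It lies on chromosome 11 from 6481447 to 6484679 (GRCh38, plus strand, 3 exons). The other 7 had intervals including 1, with ratios from 0.909 (TIMM8A) to 1.13 (TIMM29). TIMM9 and TIMM10, which form the hexamer that shields carriers, had 1387 and 2615 reads in the shPPIL1 library, and 1459 and 2540 in the shControl library. The ratio was 0.935 for TIMM9 (0.868 to 1.01) and 1.01 for TIMM10 (0.958 to 1.07). TIMM10 stood at 91.0 FPKM in the shPPIL1 library and 88.7 FPKM in the shControl library. TIMM8B had 1828 reads in the shPPIL1 library and 1894 in the shControl library (45.0 and 46.8 FPKM, ratio 0.949, 0.889 to 1.01), and TIMM13, the partner of TIMM8A, had 1830 and 1892 (ratio 0.951, 0.891 to 1.01). TIMM8A was read less, at 456 and 493 reads (5.32 and 5.78 FPKM, ratio 0.909, 0.799 to 1.04). The ratio of TIMM8A divided by that of TIMM8B was 0.958 (0.829 to 1.11), which leaves differences inside that interval undetected. TIMM22, the channel, had 1041 and 944 reads (ratio 1.08, 0.992 to 1.19), and its partner TIMM29 had 581 and 507 (ratio 1.13, 0.999 to 1.27).

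In the SAM complex, 0 of 3 genes were called, against 9.46% lower and 8.39% higher over all kept genes. SAMM50, the insertase of barrel proteins, had 4395 reads in the shPPIL1 library and 4111 in the shControl library (63.1 and 59.2 FPKM, ratio 1.05, 1.01 to 1.10). The metaxin MTX2 had 3225 and 2949 reads (58.1 and 53.3 FPKM, ratio 1.08, 1.02 to 1.13). Its partner MTX1 had 1051 and 1198 reads (15.997 and 18.3 FPKM, ratio 0.863, 0.793 to 0.938). MTX1 is uncertain, since 49.5% of its windows match the pseudogene MTX1P1. It is the only one of the 41 genes to share at least 20% of its windows with a gene elsewhere.

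Of the peptidases and proteases, 0 of 5 were called, against 9.46% lower and 8.39% higher over all kept genes. PMPCA and PMPCB form the peptidase that removes presequences. PMPCA had 3397 reads in the shPPIL1 library and 3449 in the shControl library (38.4 and 39.1 FPKM, ratio 0.968, 0.923 to 1.02), and PMPCB had 4324 and 4044 (49.9 and 46.8 FPKM, ratio 1.05, 1.01 to 1.10). LONP1, the main matrix protease, had 5153 and 5585 reads (49.4 and 53.7 FPKM, ratio 0.907, 0.873 to 0.942). CLPX, which unfolds proteins for the CLPP protease, had 5387 and 5876 reads (ratio 0.901, 0.869 to 0.936), and CLPP had 1336 and 1370 (ratio 0.959, 0.889 to 1.03).

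**Figure D3:**
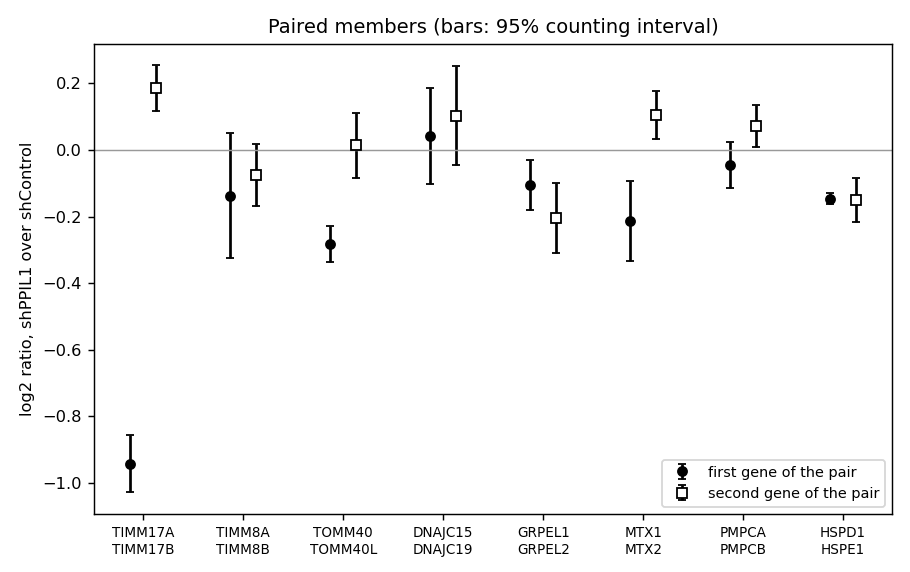
Log2 ratio (shPPIL1 over shControl) with 95% counting intervals for 8 pairs of paralogs or partners, the first gene as a filled circle and the second as an open square. The genes of the TIMM17A and TIMM17B pair lie farthest apart, at -0.94 and 0.19, and HSPD1 and HSPE1 lie together at -0.15.

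Over the 8 pairs, the interval of one ratio divided by the other excluded 1 for TIMM17A with TIMM17B, TOMM40 with TOMM40L, MTX1 with MTX2 (0.802, 0.727 to 0.885) and PMPCA with PMPCB (0.921, 0.864 to 0.982). It included 1 for TIMM8A with TIMM8B, DNAJC15 with DNAJC19 (0.958, 0.830 to 1.11), GRPEL1 with GRPEL2 (1.07, 0.980 to 1.17) and HSPD1 with HSPE1.

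Copies of GATCAT in the 3' UTR were then counted for every member. Of the 40 kept members 7 carried it (17.5%), against 24.8% of the 12112 kept genes with a matched transcript. TIMM17A and DNAJC15 had 3 copies each, HSPA9, CLPX and TIMM9 2 each, and TOMM5 and TIMM21 1 each. Of these 7, 3 were called lower (TIMM17A, TOMM5 and HSPA9), and the median log2 ratio was -0.15. Of the 33 members without it, 4 were called lower (12.1%) and the median was -0.08. Over all kept genes, the median was -0.03 with at least 1 copy and 0.01 with none, and 12.4% and 8.46% were called lower. The carriers also had longer 3' UTRs, with a median of 2823 bases against 772 over all kept genes, and of 2050 against 538 among the members. More copies did not go with lower ratios over all kept genes, with medians of -0.03, -0.04 and -0.02 for 1, 2 and at least 3 copies. DNAJC15, with 3 copies in a 3' UTR of 6976 bases, had a log2 ratio of 0.04. In the coding sequence, 8 kept members carried the motif (TOMM40L, TIMM44, TIMM50, MTX1, CHCHD4, TRAP1, LONP1 and CLPP), and 2 of them, TIMM50 and CHCHD4, were called lower. Over all kept genes, 30.6% carried it there, and 12.02% of these were called lower, against 8.28% of the others. Because the motif was picked out from these same 2 libraries, the lower values of its carriers are not independent evidence. The part of the motif and of 3' UTR length in these values was not tested.

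The sites of the other called carriers are shown in the same way for comparison with those of TIMM17A. HSPA9 lies on chromosome 5 from 138553756 to 138575724, with 17 exons. Both genes are on the minus strand (GRCh38), and the sites are at chr5:138555872-138555877, chr5:138555770-138555775 and chr9:37588453-37588458.
HSPA9 site 1: ccattagctagtGATCATttaatggacagt
HSPA9 site 2: gtaggatgaattGATCATtataaagattta
TOMM5 site: atttaagcacagGATCATtattagtctatg

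**Figure D4:**
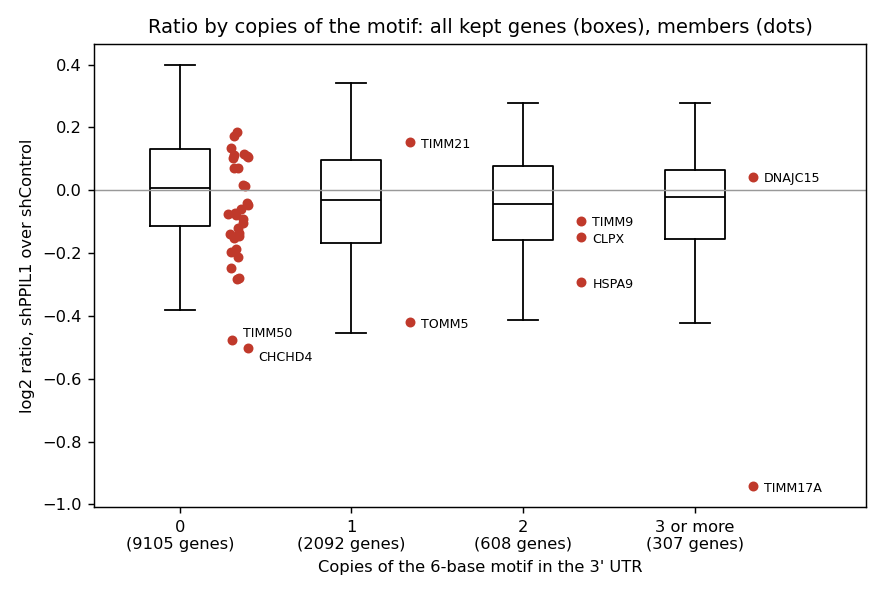
Log2 ratio (shPPIL1 over shControl) by copies of the 6-base motif in the 3' UTR. Boxes show the median and middle 50% of all kept genes, with whiskers at the 5th and 95th percentiles, and dots show the members. Box medians lie between -0.04 and 0.01, while TIMM17A lies at -0.94 with 3 copies and DNAJC15 at 0.04 with 3.

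Other genes of import and inner-compartment quality control were read for comparison, and their counts of calls stand beside 9.46% lower and 8.39% higher over all kept genes. Of 22 further import, sorting and insertion genes, 20 were kept, of which 1 was called higher and 0 lower, with a median log2 ratio of 0.05. The called gene was ROMO1, the relative of a yeast protein that seals the TIM23 channel sideways, with 1111 reads in the shPPIL1 library and 716 in the shControl library (ratio 1.53, 1.39 to 1.68). COX17, GRPEL2 and MTX3, a further metaxin (1284 and 1427 reads, ratio 0.885, 0.820 to 0.955), stayed under 1.2-fold.

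Of 20 other proteases and folding factors, 1 was called higher and 2 lower, with a median log2 ratio of -0.08. The higher gene was SPG7, a subunit of an inner-membrane protease, with 4197 reads in the shPPIL1 library and 3273 in the shControl library (ratio 1.26, 1.204 to 1.32). The lower ones were DNAJA3, a J-protein of HSPA9, with 2776 and 3492 reads (ratio 0.782, 0.743 to 0.822), and the inner-membrane peptidase gene IMMP2L, with 163 and 201 reads (ratio 0.797, 0.645 to 0.985). The rhomboid protease gene PARL had 2285 and 2642 reads (ratio 0.850, 0.804 to 0.8997), short of a call, and 74.2% of its windows lie in an overlapping gene. USP30, an outer-membrane deubiquitinase, had 659 and 540 reads (1.07 to 1.35) and lay just under 1.2-fold. These counts depend on the settings, with 2 higher under total counts only or DESeq2 size factors, 1 lower at 5 CPM or with log2(FPKM + 1), and 2 higher and 1 lower with log2(FPKM + 0.1).

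Of 15 cytosolic chaperones and factors that carry precursors, 0 were called lower and 1 higher, with a median log2 ratio of -0.02. HSP90AB1, a cytosolic Hsp90, had 52586 reads in the shPPIL1 library and 56495 in the shControl library (ratio 0.915, 0.904 to 0.926), and UBQLN1, a ubiquilin, had 8145 and 9188 (ratio 0.872, 0.846 to 0.898). The called gene, HSPA1B (1185 and 883 reads, ratio 1.32, 1.21 to 1.44), shares 68.7% of its windows with genes elsewhere. Its near copy HSPA1A had 1322 and 1133 reads (ratio 1.15, 1.06 to 1.24), and both ratios are uncertain.

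A list of regulators of the mitochondrial stress response, which also held the growth and biogenesis factors MYC, NRF1 and GABPA, had 3 of 11 kept genes lower and 0 higher, against 9.46% and 8.39% of all kept genes, with a median log2 ratio of -0.09. The called genes were MYC, TRIB3, a target of ATF4 (4729 reads in the shPPIL1 library and 6307 in the shControl library, ratio 0.737, 0.710 to 0.766), and ATF5, which drives the mitochondrial unfolded protein response (789 and 973 reads, ratio 0.797, 0.725 to 0.877). For 6 of the 11 the interval included 1. These were DDIT3, HSF1, EIF2AK1, DELE1, NRF1 and GABPA, with ratios from 0.942 (DDIT3) to 1.02 (EIF2AK1). ATF4 itself had 22165 reads in the shPPIL1 library and 24934 in the shControl library (ratio 0.874, 0.858 to 0.890). CEBPB had 2652 and 2928 reads (ratio 0.891, 0.845 to 0.939). Both had intervals below 1 and stayed under 1.2-fold.

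**Figure D5:**
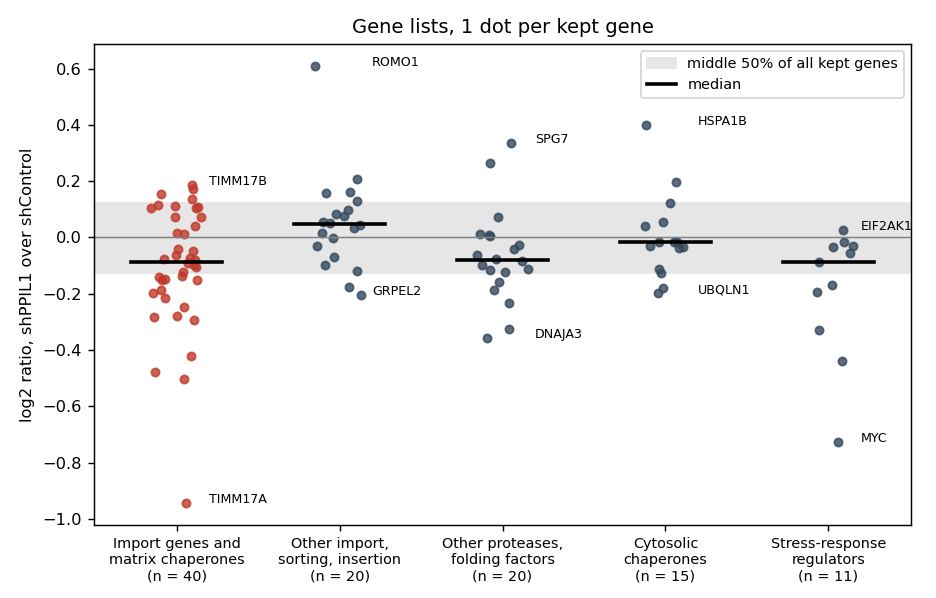
Log2 ratio (shPPIL1 over shControl) of kept members (red) and of 4 lists of related genes (dark), 1 dot per gene, with medians as black bars and the middle 50% of all kept genes in grey. Medians run from -0.09 to 0.05, and TIMM17A at -0.94, MYC at -0.73 and ROMO1 at 0.61 lie farthest from 0.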

How the data were processed

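The authors deposited raw counts per gene and FPKM (fragments scaled to transcript length and library size) for each library. The submitters' processing notes name build hg38, while the aligner, counter, annotation and strand setting are not given in the sources. Libraries were tied to columns by their labels, and 7 further count columns that match no label were not used. Counts were scaled with TMM factors (edgeR 4.0.16, R 4.3.3) of 1.01 for shPPIL1 and 0.993 for shControl, and genes were kept at 1 CPM of the scaled library size in at least 1 library. Intervals for ratios are exact (Clopper-Pearson, 95%), and those for a ratio divided by another come from the exact conditional odds ratio (scipy 1.17.1). They cover counting error only, since each group has 1 library. PCR copies are not independent molecules, so the intervals may be too narrow even for counting error. The steps were run on simulated data with counting error alone, which holds no spread between cultures and so cannot show how that spread affects the calls. Members, lists, motifs and tests were chosen with earlier results of these data known. Every member is named, with up to 2 higher and 2 lower genes of each other list by the interval bound nearest to equal expression. IMMP2L, ATF4, ATF5, CEBPB and the 6 regulators whose intervals include 1 fell outside that rule and were named after their values were seen. Motif copies and shared windows (100 bases, every 10, with 20% as the limit) were read from 1 principal transcript per gene (GENCODE release 29). Alternatives were total counts or DESeq2 1.42.0 size factors, other filters and folds, FPKM with 1 or 0.1 added, and leaving out members that share sequence or carry the motif.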

Additional observations from a re-analysis of the deposited data

How the results depend on the processing

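The number of members called lower was 7. It was 1 at 1.5-fold, 0 at 2-fold and 4 without the members that carry GATCAT in the 3' UTR, each by construction of a stricter limit or fewer genes. It lay between 5 and 7 under the other scalings, the other filters, log2(FPKM + 1), log2(FPKM + 0.1) and without MTX1. TIMM10B was not called with total counts only (ratio 0.834) or with either FPKM scale, and TOMM40 was not called with log2(FPKM + 1) (ratio 0.835). The number called higher was 0 under every alternative run. The highest member ratio was 1.14 (TIMM17B), so stricter folds, fewer genes or small shifts in scaling could hardly raise that number. The median log2 ratio of the members was between -0.09 and -0.06 under the alternatives that take a median, -0.08 without the carriers of the motif, and -0.10 as a mean. Of 331 values under an alternative, 310 stayed within a set limit, 21 moved further, and 0 were labelled reversed. Much of this agreement was fixed in advance and is no check of the results. Another scaling of a single pair of libraries shifts every log2 ratio by the same amount. FPKM divide the same counts by a length, and those alternatives carry no interval, so calls there rest on the fold alone. The limit was 1.5 times for counts. For other values it was the distance from the middle to the end of the counting interval, taken as a median over genes for medians. A value was labelled reversed only if it changed sign and its main value lay beyond that limit. The median of the cytosolic chaperones changed sign within the limit. It went from -0.02 to 0.002 with total counts only and with both FPKM scales. No paired analysis was possible because each group has 1 library. With 1 library per group, the spread between cultures is unknown, and differences near 1.2-fold rest on counting error alone.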
